A study of Mus musculus with 6 samples.

Results

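The genes described here are 35 macrophage and monocyte genes, measured by RNA-seq in hair follicle (HF) bulge stem cells (SCs) of control and ILK-K5 mice, out of 43274 genes in the deposited tables. They were found by matching the Ensembl identifiers of the tables to mouse gene symbols, and all 35 were matched. They exclude cytokines, complement, cathepsins and MHC genes. The list was drawn up with the genotype contrast of these libraries already known, so their values in that contrast are a description, and where a gene is said to be called in the fit of all genes this is not evidence for it.

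Bulge SCs were isolated by FACS from mouse skin at postnatal day 21 on surface CD34 and a high level of α6 integrin, and 3 control and 3 ILK-K5 libraries were sequenced. ILK is integrin-linked kinase, an adaptor at integrin adhesions. ILK-K5 mice carried floxed Ilk alleles on both chromosomes (labelled ILK -/-), whereas control littermates carried 1 floxed and 1 wild-type allele (labelled ILK +/-). Both genotypes carried K5-Cre, which is driven by a keratin 5 promoter and acts in basal keratinocytes and HF cells. All animals were on a mixed C57Bl6 and 129/Sv background. Nothing in the labels says that the libraries of a genotype came from separate animals, so the spread between them may be technical.

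Macrophages are phagocytes that settle in tissues either before birth or by the recruitment of blood monocytes. They share a core of genes for uptake and for immune-receptor signalling through adaptors that carry ITAM motifs, and the transcription factor PU.1, encoded by Spi1, maintains much of that core. Long-term resident cells of the skin and other tissues typically express scavenger receptors such as Mrc1, Cd163 and Folr2, whereas freshly recruited inflammatory monocytes express Ly6c2, Plac8, Chil3 and Lst1.

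The 6 libraries held 8228019 to 11969072 reads on genes, and 1 read corresponded to between 0.726 and 1.52 normalized counts, that is, reads divided by the size factor of the library. A gene with at most 3 reads in a library was taken to be at the floor. Mitochondrial genes took 11.5 to 27.6% of the reads. Ilk itself stood at 10.6, 16.7 and 38.5 normalized counts in control libraries 1 to 3 and at 14.8, 30.9 and 29.2 in the corresponding ILK-K5 libraries (log2 fold change 0.30 ± 0.64, SE; limma, adjusted p = 0.933). It could not serve as a check of the labels, because 89.7% of its exon bases are shared with other genes, mainly Taf10 on the opposite strand.

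Macrophage genes such as Lyz2, Mrc1, Adgre1 and Cybb were near absent from the control libraries and abundant in all 3 ILK-K5 libraries. Of the 35 genes, 19 had a control mean under 10 normalized counts. Lyz2, Mrc1 and Cybb had log2 fold changes of 8.93, 8.20 and 8.09. The 4 genes that mark inflammatory monocytes most narrowly (Ly6c2, Plac8, Chil3 and Slfn4) stayed at 0 to 22.4 normalized counts in every library. Of these, Slfn4 still had every ILK-K5 library above every control. So did Lst1 and Ms4a6c, which are also high in monocytes, with log2 fold changes of 3.21 (not called) and 3.79 (called). Apoe, Maf, Mertk and Arg1 were abundant in both genotypes, and their libraries overlapped. In bulk RNA, fewer cells of a type and less RNA per cell cannot be told apart, and the same holds for more cells and more RNA per cell.

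Of the 35 genes, 29 averaged at least 10 normalized counts across the libraries and entered the limma fit of all 16368 such genes. In that fit 19 of the 29 were called higher in ILK-K5 (adjusted p-value no greater than 0.05), 10 were not called, and 0 were called lower. With edgeR 18 were called higher and with DESeq2 23, and 0 lower in either. Over all genes tested in limma, 2.93% were called higher and 0.599% lower, 3.53% in all. An unadjusted p-value under 0.05 was reached by 23 of the 29, all higher, and by 12.3% of all genes tested. Because the genes were chosen from this contrast, nothing is read from these counts. All 3 ILK-K5 libraries lay above all 3 controls for 25 of the 35 genes, the groups overlapped for 10, and none had all ILK-K5 libraries below. The same separation upward held for 10.9% of all genes tested, and separation downward for 6.95%. The median log2 fold change of the 29 genes was 3.85, against 0.005 over all genes tested, but 13 of the 29 had a control mean under 10 and passed the filter only through the ILK-K5 libraries. The 6 genes that did not enter the fit were Fcgr4, Cd163, Folr2, Plac8, Chil3 and Slfn4.

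**Figure D1:**
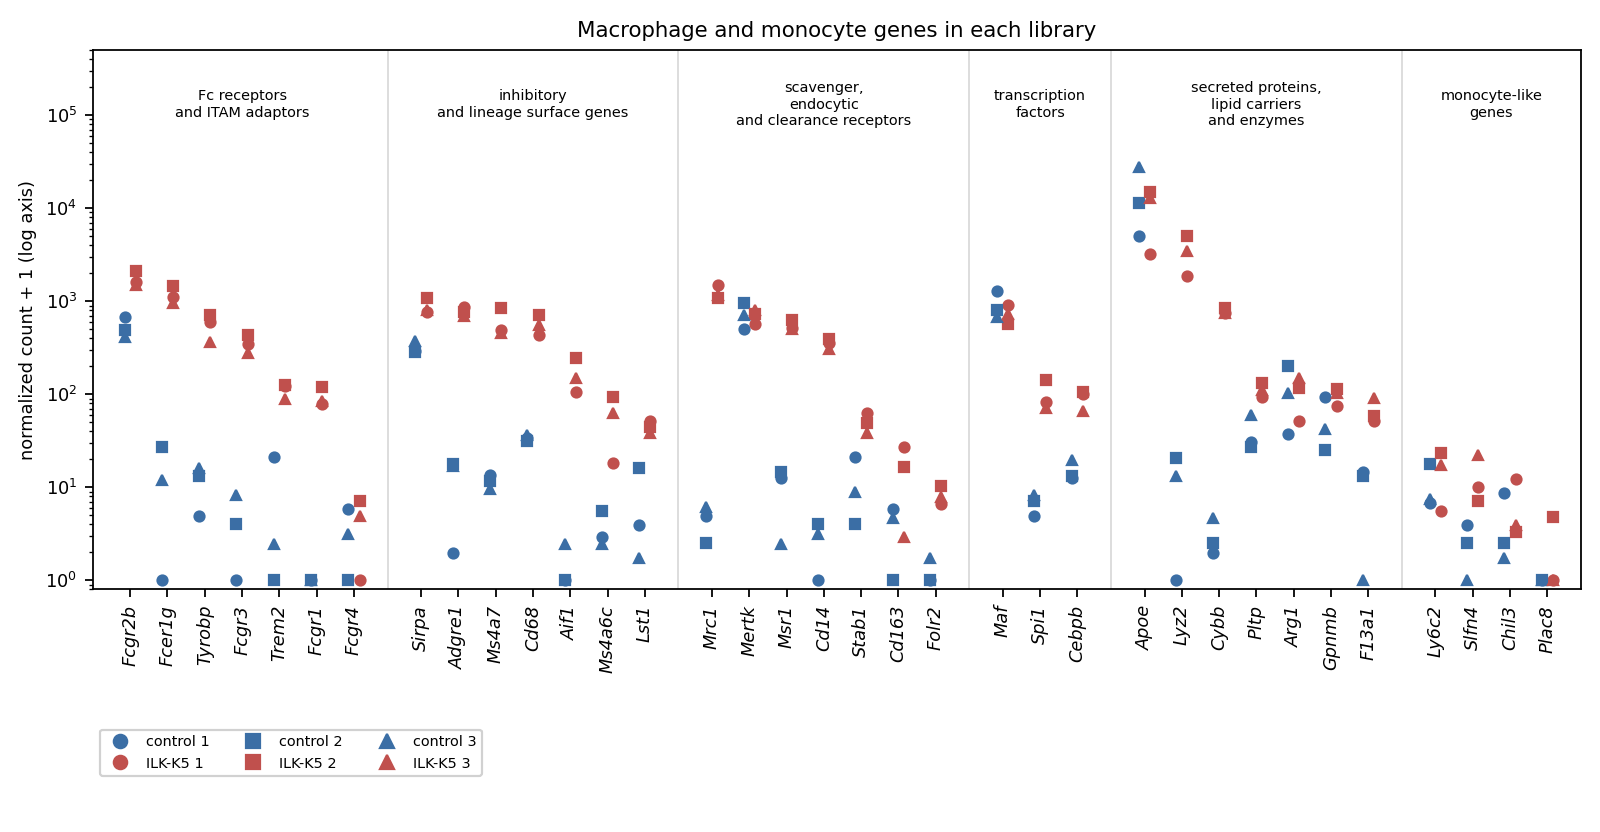
Normalized count + 1 (log axis) of each of the 35 genes in each library, grouped by role, with control libraries in blue and ILK-K5 libraries in red. Genes such as Mrc1, Lyz2 and Cybb sit near the bottom of the axis in controls and far above it in ILK-K5 libraries, whereas Mertk, Maf, Apoe and Arg1 overlap and the monocyte-like genes at the right stay low in both.

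Promoter sequence played no part in the choice of the genes, and it was searched for the DNA motifs recognised by PU.1 and by C/EBP factors, which also act in macrophages. RefSeq promoters (GRCm38.p6) were matched for 26 of the 35 genes, and the 9 without an entry were Cd14, Tyrobp, Adgre1, Arg1, Maf, Spi1, Msr1, Sirpa and Lst1. The core GAGGAA, searched on both strands in the 250 bases before each start, was present in 13 of 26 genes (50%), against 25.9% of 27025 genes in the promoter table. Counted by promoter it was in 16 of 34 (47.1%), against 23.3% of 32851. The C/EBP motif TTGCNNAA, searched in the same way and counted whether or not it overlapped the other, was in 4 of the 26 genes (15.4%) and in 10.8% of all genes. These matches are a description of letters, and a gene without one in this window may still be bound elsewhere. Lyz2, Fcer1g, Cybb, Ms4a7 and Fcgr2b, all called higher in ILK-K5 libraries, held no such core in the 250 bases. Windows of 120 bases are shown for Mrc1, Fcgr1 and Trem2, which were called higher in ILK-K5 libraries. Windows are also shown for Stab1 (not called) and Fcgr4 (not in the fit), which hold the same core. Each is written 5′ to 3′ on the strand of its gene, and capitals mark the core or its reverse complement.
Mrc1, chr2:14229294-14229413, plus strand: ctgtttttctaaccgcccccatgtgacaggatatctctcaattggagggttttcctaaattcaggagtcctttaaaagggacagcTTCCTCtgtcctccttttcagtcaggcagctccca
Fcgr1, chr3:96293970-96294089, minus strand: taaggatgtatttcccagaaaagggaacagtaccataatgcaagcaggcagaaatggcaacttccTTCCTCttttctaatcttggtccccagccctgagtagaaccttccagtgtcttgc
Trem2, chr17:48346281-48346400, plus strand: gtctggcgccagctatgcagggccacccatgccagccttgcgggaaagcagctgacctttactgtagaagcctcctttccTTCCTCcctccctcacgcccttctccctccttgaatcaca
Stab1, chr14:31168642-31168761, minus strand: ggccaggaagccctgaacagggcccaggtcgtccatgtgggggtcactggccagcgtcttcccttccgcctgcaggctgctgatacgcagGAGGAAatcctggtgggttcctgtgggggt
Fcgr4, chr1:171018806-171018925, plus strand: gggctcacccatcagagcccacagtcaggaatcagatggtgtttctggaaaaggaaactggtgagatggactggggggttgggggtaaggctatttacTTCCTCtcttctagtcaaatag
The marked core lay 35 bases before the RefSeq start of Mrc1, 55 before that of Fcgr1 and 40 before that of Trem2. It lay 30 bases before that of Stab1 and 22 before that of Fcgr4. Mrc1 also held the core 180 and 167 bases before its start, outside the printed window. The mean level of these 5 genes in ILK-K5 libraries ranged from 0.274 FPKM (Fcgr4) to 20.1 FPKM (Mrc1).

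Of 7 receptors for antibody and their signalling partners, 6 had every ILK-K5 library above every control. Tyrobp encodes DAP12 and Fcer1g the common FcRγ chain, the pair of ITAM adaptors through which activating myeloid receptors signal. In library order from 1 to 3, here and below, Fcer1g stood at 0, 25.8 and 10.9 normalized counts in controls and at 1103, 1446 and 948 in ILK-K5 libraries (log2 fold change 7.39 ± 1.0, SE here and below). Tyrobp went from 3.86, 12.2 and 15.2 to 600.0, 702 and 367, a log2 fold change of 5.73 ± 0.53. Every ILK-K5 library was far above every control for both adaptors, and they were among the most abundant of the 35 genes per length, at 137 ± 29.9 and 101 ± 31.2 FPKM in ILK-K5 libraries (mean ± SD, n = 3).

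Fcgr1, the high-affinity IgG receptor used to identify macrophages by flow cytometry, had 0 reads in all 3 controls and 77.4, 119 and 82.8 normalized counts in ILK-K5 libraries, which is at least 29.0-fold higher when the controls are set at the floor of 3 reads per library. Fcgr3, the activating low-affinity receptor, was at 0, 3.04 and 7.26 in controls and 343, 430.4 and 278 in ILK-K5 libraries (log2 fold change 6.75 ± 0.75). Fcgr2b, the inhibitory receptor of the family, was already abundant in controls, at 680.2, 494 and 408, and reached 1627, 2106 and 1479.6 (log2 fold change 1.73 ± 0.29). Fcgr2b thus differed from Fcgr1 and Fcgr3 in its level in controls. The ratio of Fcgr3 to Fcgr2b, by FPKM, was 0, 0.021 and 0.059 in controls and 0.703, 0.682 and 0.626 in ILK-K5 libraries. Fcgr2b was called in 4 of the 6 fits that leave out 1 library, and was not called without control library 2 or without ILK-K5 library 2 (log2 fold change 1.70 and 1.59).

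Trem2, a lipid-sensing receptor that pairs with DAP12, had 20.3, 0 and 1.45 normalized counts in controls and 121, 123 and 88.6 in ILK-K5 libraries (log2 fold change 4.89 ± 1.01). Control library 1 held nearly all of its control reads. Of the fits with 1 library left out, it was called only in the one without control library 1, and it was not called with a pseudocount of 0.1, a mean of at least 50 or edgeR (6.23, 4.89 and 3.87). Its log2 fold change over the 6 fits with 1 library left out ranged from 3.94 to 6.14, lowest without control library 2. Fcgr4, the IgG receptor that in blood marks patrolling monocytes, was at the limit of detection, with 5, 0 and 3 reads in controls and 0, 8 and 4 in ILK-K5 libraries. Its groups overlapped. Fcgr4 lies between Fcgr2b and Fcgr3 in a stretch of chromosome 1 that also holds Fcer1g (GRCm38, chr1:170958617-171234365), and the other 3 genes were all abundant in ILK-K5 libraries.

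All 7 surface genes of the lineage had every ILK-K5 library above every control. Adgre1 encodes F4/80, the classical mouse macrophage antigen, and stood at 0.965, 16.7 and 16 normalized counts in controls and 857, 757 and 688 in ILK-K5 libraries (log2 fold change 6.51 ± 0.77). Ms4a7, a tetraspan protein of mature macrophages, was at 12.5, 10.6 and 8.71 in controls and 489.5, 838 and 451 in ILK-K5 libraries (log2 fold change 5.63 ± 0.39). Aif1, the actin-bundling protein IBA1, had 0, 0 and 2 reads in controls and 104, 245 and 147 normalized counts in ILK-K5 libraries. All 3 genes had few reads in the controls. For Aif1, whose control reads numbered 2 in all, the ratio of pooled reads lay between 74.0 and 2224 (95% exact interval, counting error only).

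Cd68 encodes a lysosomal glycoprotein of phagocytes, and its controls were at 32.8, 30.4 and 35.6 normalized counts, a level well above the floor in each library. ILK-K5 libraries held 431, 710.3 and 555, a log2 fold change of 4.04 ± 0.33. Sirpa, the receptor for the CD47 "do not eat me" signal, was at 288, 283 and 369 in controls and 758, 1082 and 812 in ILK-K5 libraries (log2 fold change 1.49 ± 0.27). Sirpa resembled Fcgr2b in this respect: both were readily detected in controls and differed by less than 2 on the log2 scale. Sirpa was not called without control library 2, ILK-K5 library 2 or ILK-K5 library 3, with log2 fold changes of 1.42, 1.33 and 1.54.

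Ms4a6c, a relative of Ms4a7 that is high in monocytes, was at 1.93, 4.56 and 1.45 normalized counts in controls and 17.1, 91.8 and 62.3 in ILK-K5 libraries (log2 fold change 3.79 ± 0.80). It was the most uneven of the called genes, since ILK-K5 library 2 held 5.37 times the level of ILK-K5 library 1. It was called without ILK-K5 library 1 and in none of the other 5 such fits, over which its log2 fold change ranged from 3.31 (without ILK-K5 library 2) to 4.14 (without control library 2). In addition, 53.1% of its exon bases lie in BE692007 on the opposite strand, so that reads of the pair may not be separable. Lst1, a leukocyte gene that is high in monocytes, had 2.89, 15.2 and 0.726 in controls and 50.1, 43.2 and 37.0 in ILK-K5 libraries, with all ILK-K5 libraries above controls, a log2 fold change of 3.21 ± 0.86 and no call. It was called without control library 2 and in DESeq2 (log2 fold change 4.09 and 2.89).

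Of 7 receptors for scavenging and uptake, 5 had every ILK-K5 library above every control, and Mertk and Cd163 did not. Mrc1 encodes the mannose receptor CD206, a marker of resident dermal macrophages, and stood at 3.86, 1.52 and 5.08 normalized counts in controls and 1494, 1079.8 and 1179.6 in ILK-K5 libraries, a log2 fold change of 8.20 ± 0.44. Msr1, the class A scavenger receptor, was at 11.6, 13.7 and 1.45 in controls and 519, 620.1 and 503 in ILK-K5 libraries (log2 fold change 6.15 ± 0.66). Cd14, the co-receptor for lipopolysaccharide, was at 0, 3.04 and 2.18 in controls and 355, 387 and 305 in ILK-K5 libraries (log2 fold change 7.22 ± 0.62). For these 3 receptors every ILK-K5 library lay far above the highest control.

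Other resident markers were at much lower levels. Stab1, a scavenger receptor of perivascular macrophages, had 20.3, 3.04 and 7.98 normalized counts in controls and 62.6, 48.6 and 37.0 in ILK-K5 libraries (log2 fold change 2.43 ± 0.70, not called, but called without control library 1 at 3.03 and in DESeq2 at 2.18). Cd163, the haemoglobin scavenger receptor, had 4.82, 0 and 3.63 in controls and 26.2, 15.4 and 1.95 in ILK-K5 libraries, and its groups overlapped because ILK-K5 library 3 held only 2 reads. Folr2, the folate receptor β of resident macrophages, had 0, 0 and 1 reads in controls and 5, 12 and 7 in ILK-K5 libraries, a ratio of pooled reads between 3.76 and 947 (95% exact interval), and 63.1% of its exon bases are shared with Gm10602. Per length, the mean of Mrc1 in ILK-K5 libraries was 20.1 ± 3.48 FPKM, that of Folr2 0.69 ± 0.173, that of Stab1 0.492 ± 0.128 and that of Cd163 0.331 ± 0.277. Mrc1 thus stood far above Folr2, Stab1 and Cd163.

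Mertk, a receptor for apoptotic cells that many macrophages express, did not differ in this way. It stood at 506, 961 and 710.4 normalized counts in controls and 569, 732 and 813 in ILK-K5 libraries, with a log2 fold change of -0.01 ± 0.31. The 2 groups overlapped. Per length, the controls held Mertk at 17.2 ± 5.39 FPKM, but Mrc1 at 0.0561 ± 0.0291 and Adgre1 at 0.354 ± 0.281.

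Among the transcription factors, Spi1 was at 3.86, 6.08 and 7.26 normalized counts in controls and 82.0, 140.4 and 71.1 in ILK-K5 libraries (log2 fold change 3.85 ± 0.54). Its call was lost without ILK-K5 library 2 (log2 fold change 3.56). Cebpb, which cooperates with PU.1 in myeloid cells and is also expressed in keratinocytes, was at 11.6, 12.2 and 18.9 in controls and 99.0, 105 and 65.3 in ILK-K5 libraries (log2 fold change 2.58 ± 0.47). Leaving out control library 2 or any of the ILK-K5 libraries ended the call of Cebpb, over a log2 range of 2.45 to 2.79, and 20.7% of its exon bases lie in Tmem189. Maf, a factor of resident macrophages that also acts in other lineages, was at 1298, 806 and 676 in controls and 919, 571 and 731 in ILK-K5 libraries, and its groups overlapped (log2 fold change -0.29 ± 0.32).

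Among secreted proteins and enzymes, Lyz2, the lysozyme of myeloid cells, was close to absent from the controls. It was at 0, 19.8 and 12.3 normalized counts in controls and 1869, 4998 and 3462 in ILK-K5 libraries (log2 fold change 8.93 ± 0.98, or 7.58 without control library 1), and at 279 ± 127 FPKM it was the most abundant gene of the list in ILK-K5 libraries after Apoe. Cybb, the catalytic subunit of the phagocyte NADPH oxidase, was at 0.965, 1.52 and 3.63 in controls and 749, 836 and 741 in ILK-K5 libraries (log2 fold change 8.09 ± 0.47). The ILK-K5 libraries differed little in Cybb, with a coefficient of variation of 6.78%, but by 2.67 times between libraries 1 and 2 in Lyz2.

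The remaining genes of this group showed smaller differences. F13a1, a transglutaminase of macrophages and platelets, had 13.5, 12.2 and 0 normalized counts in controls and 51.2, 57.1 and 89.6 in ILK-K5 libraries (log2 fold change 3.50 ± 1.0, not called, but called in DESeq2 at 2.96 and with a pseudocount of 5 at 2.57). Pltp, which transfers phospholipids, had 29.9, 25.8 and 58.8 in controls and 93.4, 133 and 109 in ILK-K5 libraries (log2 fold change 1.6 ± 0.44, not called, but called without control library 3 at 1.95 and in DESeq2 at 1.51), with 19.3% of its exon bases in Ctsa. All ILK-K5 libraries were above all controls for both genes. Gpnmb, a glycoprotein of lipid-loaded macrophages and of melanocytes, had 93.6, 24.3 and 41.4 in controls and 74.0, 113 and 101 in ILK-K5 libraries. Arg1, an arginase of alternatively activated macrophages and of keratinocytes, had 36.7, 199 and 102 in controls and 50.1, 115 and 150.0 in ILK-K5 libraries. Both overlapped between the genotypes, with log2 fold changes of 1.03 ± 0.52 and 0.07 ± 0.64.

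Apoe, the apolipoprotein of macrophages and many other cells, was the most abundant gene of the list in every library. It stood at 5031, 11435 and 27778 normalized counts in controls and 3234, 14780.4 and 12789.7 in ILK-K5 libraries, a log2 fold change of -0.46 ± 0.71. Library 1 was the lowest of its genotype in both, and the spread within a genotype exceeded the difference between them.

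**Figure D2:**
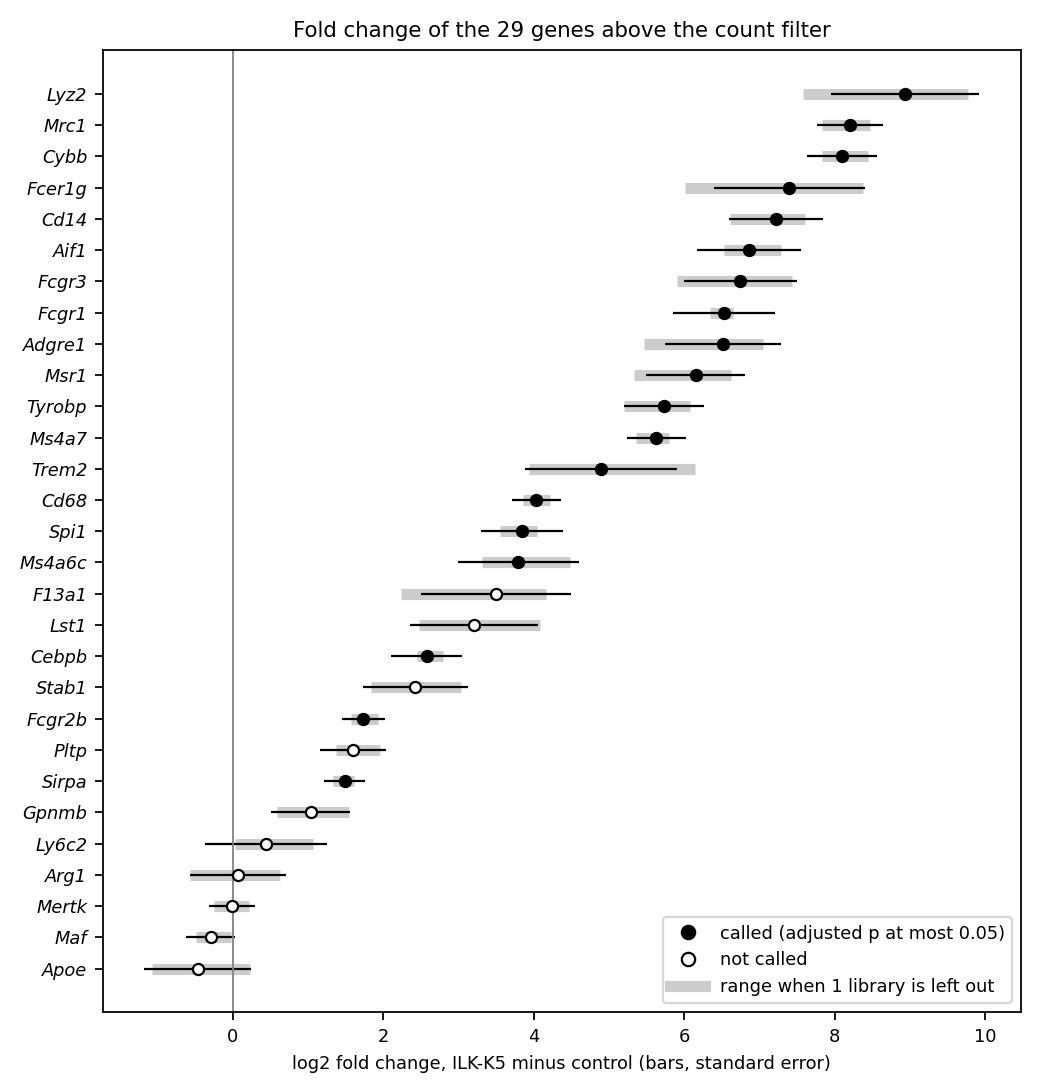
Log2 fold change (ILK-K5 minus control) of the 29 genes above the count filter, with the standard error as a black bar and the range over the 6 fits that each leave out 1 library in grey. Filled points were called, and the open points at F13a1, Lst1, Stab1 and Pltp have fold changes above that of Sirpa, which was called.

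The narrow monocyte genes were compared with the rest on the scale of reads, because most were near the floor. Ly6c2, the antigen of inflammatory monocytes, had 5.79, 16.7 and 6.53 normalized counts in controls and 4.55, 22.4 and 16.6 in ILK-K5 libraries, and its groups overlapped (log2 fold change 0.44 ± 0.81). Plac8 had 0, 0 and 0 reads in controls and 0, 5 and 0 in ILK-K5 libraries. Chil3, a chitinase-like protein, had 8, 1 and 1 reads in controls and 10, 3 and 3 in ILK-K5 libraries. Plac8 was thus seen in ILK-K5 library 2 alone, and Chil3 overlapped between the genotypes. Slfn4, a gene of the Schlafen family found in activated myeloid cells, had 3, 1 and 0 reads in controls and 8, 8 and 22 in ILK-K5 libraries, with all ILK-K5 libraries above controls at a level too low to enter the fit. These 4 genes together made up 0.166, 0.131 and 0.182% of the summed FPKM of the list without Apoe in ILK-K5 libraries 1 to 3. The ratio of Ly6c2 to Adgre1 was 0.006, 0.035 and 0.029 in the same libraries, by FPKM.

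**Figure D3:**
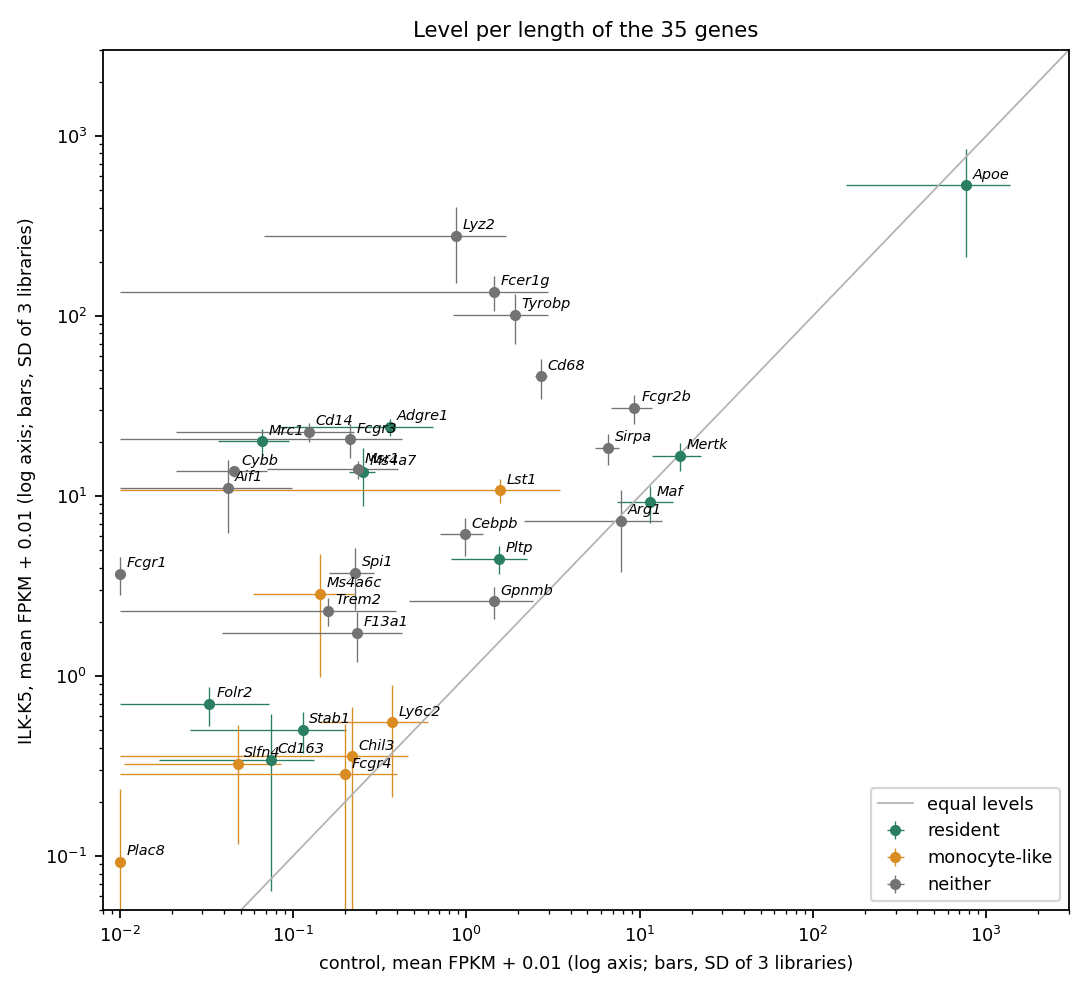
Mean FPKM + 0.01 of each gene in ILK-K5 against control libraries (both axes log; bars, SD of 3 libraries), coloured by the state that the gene usually marks. Lyz2, Fcer1g, Tyrobp and Cd68 reach the highest ILK-K5 levels after Apoe, Mrc1 and Cybb lie far above the line of equal levels, Apoe, Mertk, Maf and Arg1 lie near the line, and the monocyte-like genes other than Lst1 and Ms4a6c stay below 1 FPKM in ILK-K5 libraries.

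The make-up of the list was then compared between libraries per length. Apoe alone took 81.2, 88.1 and 95.8% of the summed FPKM of the 35 genes in the controls, and 19.9, 42.0 and 47.0% in ILK-K5 libraries. Without Apoe, a choice made after its values were seen, the sum was 60.5, 80.0 and 62.7 FPKM in controls and 676, 1059 and 746 in ILK-K5 libraries. Of that sum in ILK-K5 libraries, Lyz2 took 22.4, 38.2 and 37.6% and the ITAM adaptors Tyrobp and Fcer1g 35.3, 28.1 and 23.9%. The genes that usually mark resident cells took 13.7, 8.69 and 11.4%, and those that usually mark monocytes 2.12, 1.62 and 1.87%. Among the 35 genes, 10 were assigned to resident cells, namely Apoe, Mertk, Maf, Mrc1, Adgre1, Ms4a7, Pltp, Stab1, Cd163 and Folr2. The 7 assigned to monocytes were Lst1, Ms4a6c, Ly6c2, Fcgr4, Plac8, Chil3 and Slfn4. Of these 7, Lst1 was the highest in each ILK-K5 library, at 12.4, 10.7 and 9.15 FPKM. Over the 24 genes with a control mean under 25% of the ILK-K5 mean, a cut made on these values, resident genes took 10.8, 6.51 and 7.96%. Monocyte genes took 2.26, 1.64 and 1.96% there. In controls without Apoe, the leading genes were Maf in library 1 and Mertk in libraries 2 and 3.

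The order of the genes by FPKM was alike in the ILK-K5 libraries (Spearman's rho 0.965 to 0.978 over the 35 genes, which are not independent). The balance of some genes nevertheless differed between these libraries. The ratio of Lyz2 to Mrc1, by FPKM, was 6.30, 23.3 and 14.8 in ILK-K5 libraries 1 to 3, and that of Aif1 to Mrc1 0.288, 0.945 and 0.519. By contrast the ratio of Adgre1 to Mrc1 was 1.13, 1.38 and 1.15. Of the 35 genes, 24 were highest in ILK-K5 library 2, 7 in library 1 and 4 in library 3. Library 1 was highest for Mrc1, Adgre1, Stab1, Lst1, Maf, Cd163 and Chil3, and lowest for 15 genes, among them Lyz2, Aif1, Ms4a6c, Apoe, Cd68 and Sirpa. Library 3 was likewise lowest for 15 genes, among them Fcgr2b, Fcgr3, Tyrobp, Fcer1g, Adgre1 and Cybb, and library 2 for 4. The log2 ratio of library 2 to library 1 had a Spearman's rho of -0.413 with the gene length used in the FPKM over the 28 genes with at least 20 reads in both, and of -0.254 over 12828 genes tested. With the GC content of the longest transcript the values were 0.190 and 0.309. The part of length and GC content in these ratios was not tested.

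**Figure D4:**
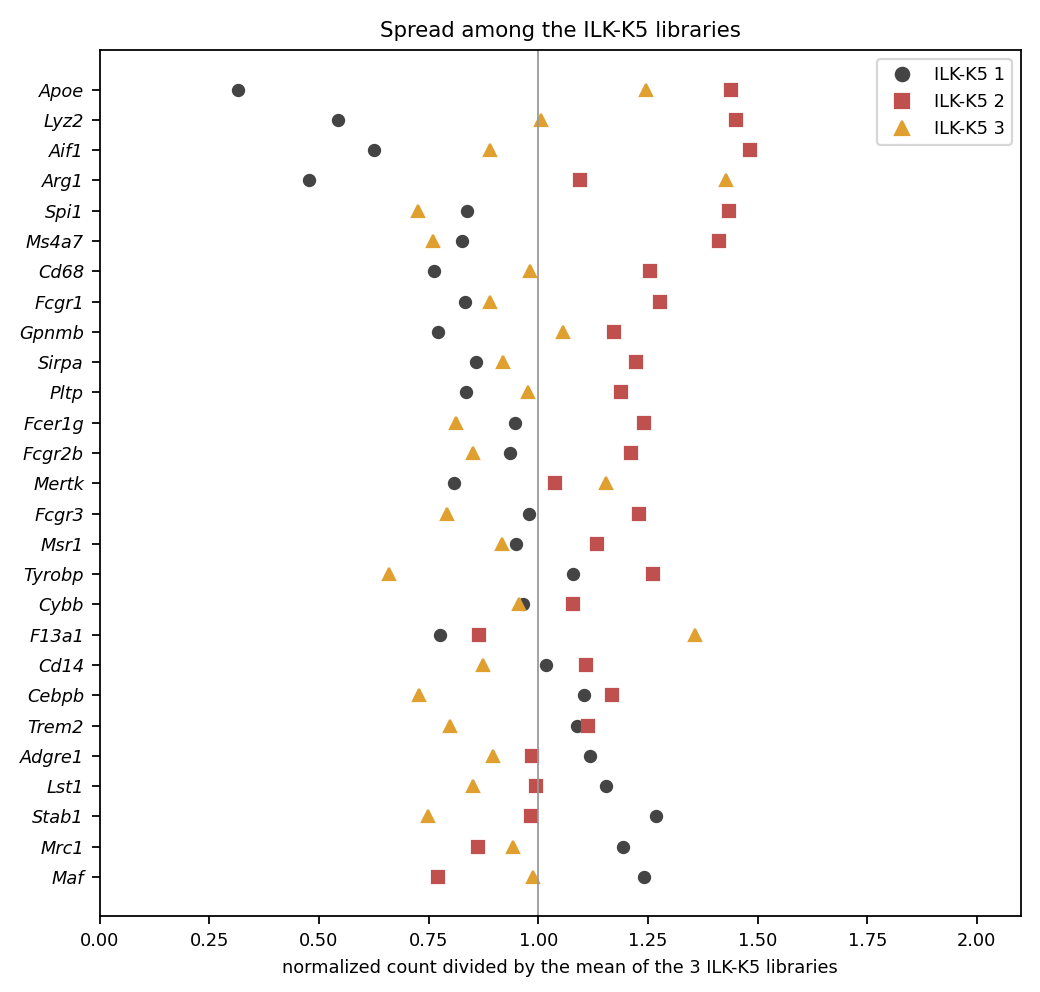
Normalized count of each ILK-K5 library divided by the mean of the 3, for the genes with at least 20 reads in each of them, ordered by the ratio of library 2 to library 1. Apoe, Lyz2 and Aif1 are lowest in library 1, Mrc1, Stab1 and Maf are highest there, and the 3 libraries lie close together for Cybb.

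Other genes of the same pathways were taken from 7 lists that hold none of the 35 genes. Of their 68 genes, 58 were tested, 29 were called higher in ILK-K5, 1 lower and 28 were not called. Over all genes tested, 2.93% were called higher and 0.599% lower. These lists too were chosen with earlier results of these data known, so their counts and p-values are a description. Some genes, such as Irf8 and Retnla, were near absent from controls and passed the filter only through the ILK-K5 libraries. Of 15 genes of signalling below the ITAM adaptors 11 were called higher, and 7 to 11 when 1 library was left out. The count was 7 when any one of the ILK-K5 libraries was left out and 8 without control library 2, since Lcp2, Rac2, Was and Pik3ap1 were then not called, Pik3ap1 in part because it no longer passed the filter on low values. The genes called throughout included the Src-family kinases Fgr and Lyn (log2 fold change 6.68 ± 0.75, adjusted p = 0.00139, and 4.35 ± 0.41, adjusted p = 0.000583), and Nckap1l, a leukocyte regulator of actin (6.56 ± 0.67, adjusted p = 0.000887). Syk, the kinase recruited by the ITAM, did not pass, at a log2 fold change of 1.58 ± 0.38 (adjusted p = 0.0624). Of the 5 oxidase partners of Cybb, 3 were called higher (only 1 when the second library of either genotype was left out), led by Ncf1 (4.68 ± 0.50, adjusted p = 0.00104), while Rac1 did not pass (0.40 ± 0.34, adjusted p = 0.782).

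Of 10 further myeloid transcription factors 5 were called higher, and 2 (with ILK-K5 library 1 left out) to 4 when 1 library was left out. Runx1 lost its call in 4 of the 6 fits, and Ikzf1 was not called without ILK-K5 library 1. Tfec kept its call only without control library 1. It was not called without control library 2 or 3. When any one of the ILK-K5 libraries was left out, Tfec did not pass the filter on low values. Irf8, a factor of monocytes and dendritic cells, rose from 0.965, 1.52 and 0 to 137, 108 and 99.4 normalized counts (adjusted p = 0.00107). Among genes of scavenging and lipid handling, 3 of 11 tested rose (Spp1, Cd36 and Lpl, log2 fold changes 6.66, 4.51 and 2.44). Of the alternative activation genes, 4 of 5 tested rose, namely Retnla, Tgm2, Il4ra and Fn1 (2 without ILK-K5 library 1 or 2). Retnla, a secreted protein induced by IL-4 in macrophages, had 0, 0 and 0.726 normalized counts in controls and 62.6, 75.6 and 19.5 in ILK-K5 libraries (adjusted p = 0.00913). Several of these calls were lost when 1 library was left out. That of Retnla was lost without ILK-K5 library 1 or 2 (log2 fold change 5.05 and 4.91), that of Lpl when control library 2 or 3 or ILK-K5 library 3 was left out (2.35 to 2.69), and that of Il4ra without control library 2 or any of the ILK-K5 libraries (2.40 to 2.76).

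Further markers of residence gave few calls, and further markers of monocytes gave calls in both directions. Of 10 other resident genes 6 were tested, and only Mgl2, a lectin of dermal macrophages and dendritic cells, was called, at 4.82, 0 and 4.35 normalized counts in controls and 67.2, 217 and 185 in ILK-K5 libraries (adjusted p = 0.00634). Its call was lost without ILK-K5 library 2 (log2 fold change 5.16). Vsig4 had 0 reads in the ILK-K5 libraries, and Lyve1 had 11.6, 18.2 and 3.63 normalized counts in controls and 36.4, 58.6 and 40.9 in ILK-K5 libraries (adjusted p = 0.158). Of 10 other monocyte genes 7 were tested, of which Vcan, F10 and Fn1 rose and Ifitm6 fell, from 34.7, 198 and 90.7 to 0, 6.17 and 4.87 normalized counts (adjusted p = 0.028). Vcan, F10 and Fn1 kept their calls whichever library was left out. Their log2 fold changes then ranged over 2.96 to 3.58, 3.55 to 3.93 and 3.89 to 4.41. The call of Ifitm6 was lost when control library 2 or 3 or ILK-K5 library 1 or 3 was left out (log2 fold change -3.74 to -5.02). Vcan and Fn1 encode matrix proteins that fibroblasts also make, and Fn1 is in the lists of both monocyte and alternative activation genes.

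Markers of other cell types were summed in each library to show what else moved with the macrophage genes. The sum of 6 general leukocyte genes was 45.6 to 107 normalized counts in controls and 3266 to 4232 in ILK-K5 libraries, with all 6 called higher (Coro1a not without control library 2 or ILK-K5 library 2 or 3, log2 fold change 4.79 to 5.15). Of 5 Langerhans cell markers Epcam and Itgax were called higher, although Itgax is also a gene of macrophages and dendritic cells and Epcam one of keratinocytes. Epcam was called in none of the fits that left out 1 library other than control library 3 (1.23 to 1.58). Cd207, their defining marker, had 7.72, 42.6 and 68.2 in controls and 425, 133 and 108 in ILK-K5 libraries and did not pass (adjusted p = 0.148). The 6 dendritic cell genes summed to 30.4 to 79.1 in controls and 128 to 219 in ILK-K5 libraries, and the 5 tested had adjusted p-values from 0.0628 (Xcr1) to 0.75 (Flt3).

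Of 9 neutrophil genes 3 were tested, and S100a8 and S100a9 were called higher, whereas Ly6g, Elane, Retnlg and Ngp had 0 reads in the ILK-K5 libraries. S100a9 was not called without ILK-K5 library 2 (5.07), nor S100a8 without control library 2 or any of the ILK-K5 libraries (4.31 to 4.75). The mast cell genes Cpa3, Mcpt4, Tpsb2 and Cma1, and the B cell gene Cd79a, also had 0 reads there. Among T cell genes only Cd2 was called, though not without any one of the ILK-K5 libraries (4.87 to 5.06), and the list summed to 110 to 138 in controls and 184 to 247 in ILK-K5 libraries. The fibroblast list summed to 703 to 779 in controls and 1532 to 2493 in ILK-K5 libraries, with Col3a1 called higher. Of 9 genes of bulge SCs and basal keratinocytes, Cd34 was called lower, at 2009, 947 and 1959.9 normalized counts in controls and 296, 559.9 and 433 in ILK-K5 libraries (adjusted p = 0.0239), although the protein was used for sorting. That call was lost when control library 1 or 3 or ILK-K5 library 1 or 3 was left out (log2 fold change -1.65 to -1.93). The list as a whole summed to 73565 to 182793 in controls and 53411 to 94208 in ILK-K5 libraries. The part of these other cells in the levels of shared genes was not tested.

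**Figure D5:**
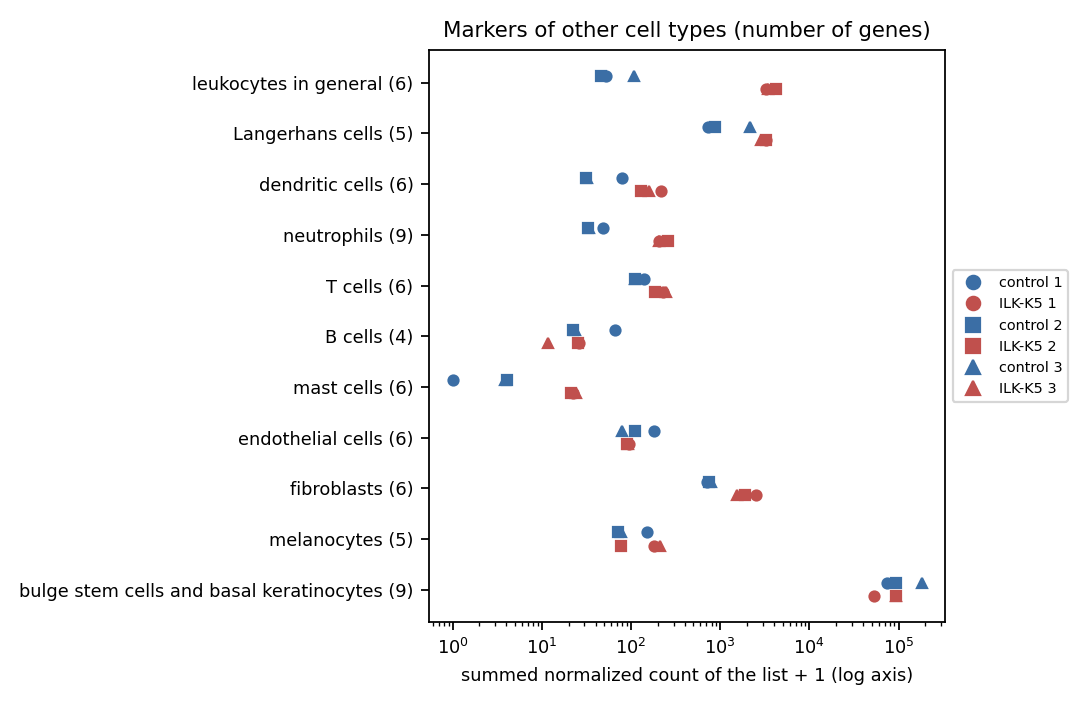
Summed normalized count + 1 (log axis) of each marker list in each library, with the number of genes in parentheses, control libraries in blue and ILK-K5 libraries in red. The general leukocyte list is furthest apart between the genotypes, at 45.6 to 107 against 3266 to 4232, whereas endothelial, B cell and melanocyte lists overlap.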

How the data were processed

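RNA of sorted cells from 3 control and 3 ILK-K5 samples was amplified to cDNA before paired-end sequencing. According to the study's methods and the submitters' processing notes, reads were aligned to GRCm38 with TopHat2 2.0.14 and Bowtie2 2.2.4, and DESeq2 1.6.3 was used. The counting program is not given in the sources used here, so the handling of overlapping genes is unknown. The signal values deposited by the authors are counts divided by size factors. All of them (100%, tolerance 1e-06) were whole multiples of 1 value per library, so reads were recovered. The FPKM values deposited by the authors equal these times a constant per gene. Tables of the authors' own comparison (fold changes and p-values) were not used.

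Of 43274 genes, 42107 had a symbol in GENCODE M21. Genotypes were compared with limma 3.58.1 (R 4.3.3; eBayes with trend, two-sided) on log2(normalized count + 1) for genes with a mean of at least 10, with Benjamini-Hochberg adjustment over all of them. Fold changes of low genes depend on this scale, and can be lower or higher than those fitted to counts. That of Fcgr1 was 6.53 here and 8.93 with DESeq2, whereas that of Lyz2 was 8.93 here and 8.33 with DESeq2. The p-values measure only the spread between these libraries. Reads on genes numbered 10486936, 8228019 and 11969072 in controls and 8537226, 11245328 and 9039193 in ILK-K5 libraries. Intervals and floors cover counting error only. Alternatives used edgeR 4.0.16 and DESeq2 1.42.0 on recovered reads. Scripts were tested on simulated data. The members, the gene lists and the rule for named genes (all members and all list genes) were chosen with earlier results of these data known. Not every list gene is reported here. The comparison of library ratios with length and GC content was added after the data were seen. Python 3.11.15, pandas 2.3.3 and matplotlib 3.10.9 were used.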

Additional observations from a re-analysis of the deposited data

How the results depend on the processing

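Of the 29 macrophage and monocyte genes tested, 17 to 23 were called higher, and 0 lower, under the alternatives that kept all libraries and the count filter (edgeR 18, DESeq2 23). When the filter was raised to a mean of 50, 16 of 23 were called, and with replicates 2 and 3 only 18 of 29. Leaving out 1 library gave 13 (without ILK-K5 library 2) to 19. The median log2 fold change was 4.24 with a pseudocount of 0.1, 3.21 with a pseudocount of 5, 3.21 without the filter, 4.89 with a mean of at least 50 and 4.32 with replicates 2 and 3, and lay between 3.58 and 4.22 when 1 library was left out. Over all genes, 479 were higher and 98 lower, against 772 and 280 with DESeq2 and 846 and 286 with a term for replicate 1 against 2 and 3. When 1 library was left out, 217 to 554 genes were higher and 32 to 93 lower, and 19 to 30 genes of the 7 other myeloid lists were called, against 30 with all libraries. The lowest of these were without ILK-K5 library 2 (217 and 32) and without ILK-K5 library 1 (19). The cause of these shifts was not tested. No called gene named here reversed direction under these alternatives. This depth leaves Fcgr4, Plac8 and Chil3 within a few reads of the floor in most libraries, and a difference in them between the genotypes was not detectable.

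Same-numbered libraries did not all deviate together. Correlations of their deviations from the group means over 16368 genes were 0.529, 0.0198 and 0.307 for replicates 1 to 3. Not every library correlated best with its own number, so the numbers were not taken as pairs. Control library 1 stood at -0.450 and -0.325 with ILK-K5 libraries 2 and 3. Control library 3 stood at -0.553, 0.498 and 0.307 with ILK-K5 libraries 1 to 3, and control library 2 at -0.060, 0.0198 and 0.0738. The sample descriptions also set replicate 1 apart from 2 and 3 without giving a reason, so a term for that split was among the alternatives. With the replicate number as a block, 848 genes were higher and 269 lower, 23 of the 29 genes were called (F13a1, Stab1, Lst1 and Pltp in addition), and 38 genes of the other myeloid lists were.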
